A study of Rattus norvegicus with 4 samples.

Results

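The nuclei described here were selected as pericytes, the mural cells that wrap capillaries and small venules, from nuclear RNA sequencing of 2 fat depots of the rat. A barcode was selected if it had at least 500 detected genes, at least 3 unique molecular identifiers (UMIs, counts of distinct captured RNA molecules) and at least 2 genes detected among Rgs5, Abcc9, Kcnj8, Pdgfrb, Notch3 and Cspg4, no UMI of Myh11, Cnn1 or Myocd, and at most 1 UMI over Cyyr1, Ptprb, Flt1, Pdgfra, Ptprc and Mrc1. This rule took 1450 of 116661 nuclei, 1.24%. They were 687 of 42979 in taPVAT replicate 1, 162 of 12336 in taPVAT replicate 2, 420 of 34553 in BAT replicate 1 and 181 of 26793 in BAT replicate 2. No barcode was selected in both libraries of a pair, while 93 to 381 barcodes of kept nuclei were shared by a pair of libraries.

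The 4 libraries came from snap-frozen fat of untreated male Dahl salt-sensitive rats (strain SS/HsdMcwiCrl) aged 16 weeks, an inbred strain used as a model of salt-sensitive hypertension. The taPVAT group, 2 libraries, is the perivascular fat of the thoracic aorta, and the BAT group, 2 libraries, is subscapular brown fat. About 50 mg of tissue was used per library. The target was 10000 nuclei, while 12336 to 42979 barcodes per library had 500 genes or more. The labels do not say whether a rat gave both tissues, nor whether animals were pooled, so p-values here measure the spread between these libraries.

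Pericytes share the basement membrane of the endothelium and are recruited by platelet-derived growth factor B, which endothelial cells release and which acts on Pdgfrb. Notch3, a receptor for ligands on neighbouring cells, maintains mural cells. Abcc9 and Kcnj8 encode the regulatory and pore subunits of the vascular ATP-sensitive potassium channel, Rgs5 is a brake on G protein signalling, and Cspg4 is the proteoglycan NG2. Smooth muscle cells of arterioles and arteries share most of these genes and add a contractile apparatus with the myosin heavy chain Myh11, the actin-binding calponin Cnn1 and the transcriptional coactivator Myocd. In fat, Pdgfrb and Cspg4 are also found in progenitor cells of the stroma.

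The libraries held 63654436 to 158140959 UMIs. The median selected nucleus had 2541, 2315.5, 2817 and 2044 UMIs in taPVAT replicates 1 and 2 and BAT replicates 1 and 2, the order used throughout. Its share of mitochondrial UMIs was 9.42, 13.2, 10.2 and 14.9%. Levels are given in CPM, the UMIs of a gene per 1000000 UMIs summed over the nuclei of a class in a library. The sums rest on 2364555, 542259, 1791272 and 664854 UMIs, so levels in taPVAT replicate 2 and BAT replicate 2 are the least precise. A gene named AC134224.3 alone took 128542, 105003, 124075 and 148524 CPM of them, and a similar share in every class.

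The rule's own genes describe what was taken and are not tested. Abcc9 was the broadest, with a UMI in 92.4, 77.2, 79.8 and 80.7% of the selected nuclei and 1011, 859, 643 and 707 CPM. Pdgfrb was present in 69, 79.6, 63.8 and 75.7% and stood at 370.05, 569.8, 249 and 445 CPM, and Notch3 in 45.7, 61.7, 62.9 and 47% at 200.5, 337, 275 and 208 CPM. Rgs5 was present in 52.7, 34.6, 30 and 50.3% at 309.6, 328, 132 and 268 CPM. Both BAT libraries had less Abcc9 and Rgs5 than both taPVAT libraries, while Pdgfrb and Notch3 overlapped. Kcnj8, the pore partner of Abcc9, stood at 87.1, 103, 43.5 and 76.7 CPM, and Cspg4 at 90.1, 92.2, 95.5 and 63.2 CPM.

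Marker sums and clustering of these nuclei, given below, showed that they were a mixture, and that the name pericyte fits only some of them. At least 1 UMI of Rgs5 or Kcnj8, known markers of mural cells, was present in 417 nuclei (60.7%), 67 (41.4%), 147 (35.0%) and 106 (58.6%), or 737 of 1450 in all (50.8%). Wilson 95% intervals were 57 to 64.3%, 34.1 to 49.1%, 30.6 to 39.7% and 51.3 to 65.5%, which cover counting error only. Both are rule genes, and at these depths a nucleus can lack a UMI of a gene that it expresses. In expression groups 1 and 4 below, those with the highest Rgs5, 75.8% and 78.9% of nuclei had a UMI of either. The share with Rgs5 or Kcnj8 is therefore not the share of pericytes. Free RNA can also give a UMI in any nucleus. Nuclei with endothelial markers had a UMI of Rgs5 or Kcnj8 in 4.36, 2.93, 2.92 and 5.05%, at median depths of 2406, 2104, 2389.5 and 2208 UMIs. Whether those nuclei express either gene themselves was not tested. Smooth muscle nuclei had one in 24.4, 52.8, 14.5 and 17.4% at 2769.5, 2386, 2917 and 2321 UMIs. The most frequent set of rule genes in a nucleus was Abcc9 with Pdgfrb alone, in 192 nuclei (13.2%). Abcc9, Pdgfrb and Notch3 followed with 138, and Rgs5 with these 3 genes was found in 112.

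Fibroblast markers separated the nuclei with and without Rgs5 or Kcnj8. The summed level of the 11 matched markers, among them Dcn, Lum, Col1a1, Scara5, Fbn1, Dpt and Pi16, was 402, 554, 346 and 176 CPM in nuclei with Rgs5 or Kcnj8, and 969.9, 2414, 1004 and 1095 CPM in nuclei without. It was 464, 274, 217 and 283 CPM in smooth muscle nuclei, 2966 to 6253 CPM in nuclei picked by Dcn and other fibroblast genes, and 200.2 to 302 CPM in nuclei of neither mural class. Only Abca6 of these markers was at 0 in all selected nuclei. In every library the nuclei without Rgs5 or Kcnj8 lay above those with them, and taPVAT replicate 2 was highest in each mural subset but smooth muscle. Pericyte markers that the rule had not used (19 matched, among them Steap4, Postn, Vtn, Mcam and Rgs4) went the other way, with 2016, 3030.3, 2732 and 2488 CPM with Rgs5 or Kcnj8 and 1072, 1375, 1063 and 1624 CPM without. All selected nuclei together had 1572, 2102, 1529 and 2185 CPM. Smooth muscle nuclei had 1429, 2782, 1361 and 1426 CPM, so these markers do not set the selected nuclei apart from them as a whole. The smooth muscle sums lay below the nuclei with Rgs5 or Kcnj8 in each library. They lay above those without, except in BAT replicate 2. Other nuclei had 661 to 842 CPM, and only Colec11 was at 0 in the selected nuclei.

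Adipocyte RNA was present in all classes. The 13 adipocyte markers summed to 8742, 4918, 9213 and 6920.3 CPM in the selected nuclei and 10489, 8634, 11685 and 7965 CPM in the other nuclei, most of the tissue. Vascular endothelial markers, the other cells a capillary holds, summed to 70.3 to 111 CPM in the selected nuclei against 1434 to 2438 CPM in endothelial nuclei, with Plvap at 0. Myeloid markers summed to 52.9 to 75.6 CPM and lymphocyte markers to 3.69 to 20.7 CPM, with Ms4a1 and Cd79a at 0. Other nuclei had 163 to 252 CPM of endothelial, 75.8 to 100 CPM of myeloid and 24.0 to 31.4 CPM of lymphocyte markers. The rule limited genes of these lineages, and Cyyr1, Ptprb and Flt1 also picked the endothelial nuclei. The low sums thus follow in part from the selection. The summed Schwann cell markers were above their level in other nuclei in each library, and below it in nuclei with Rgs5 or Kcnj8. Of single markers, Ncmap was at 0, Sox10 at 0.423, 0, 0 and 0 CPM and Mbp at 532, 411, 506 and 615 CPM. The part of RNA from other cells in the levels below was not tested. Values are given beside many results for the nuclei with Rgs5 or Kcnj8, a subset chosen after the data were seen. That subset was not poorer in adipocyte RNA in every library. Its adipocyte markers summed to 8467, 5876, 8516 and 7363 CPM, against 9051, 4168, 9483 and 6099 CPM in selected nuclei without Rgs5 or Kcnj8.

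**Figure D1:**
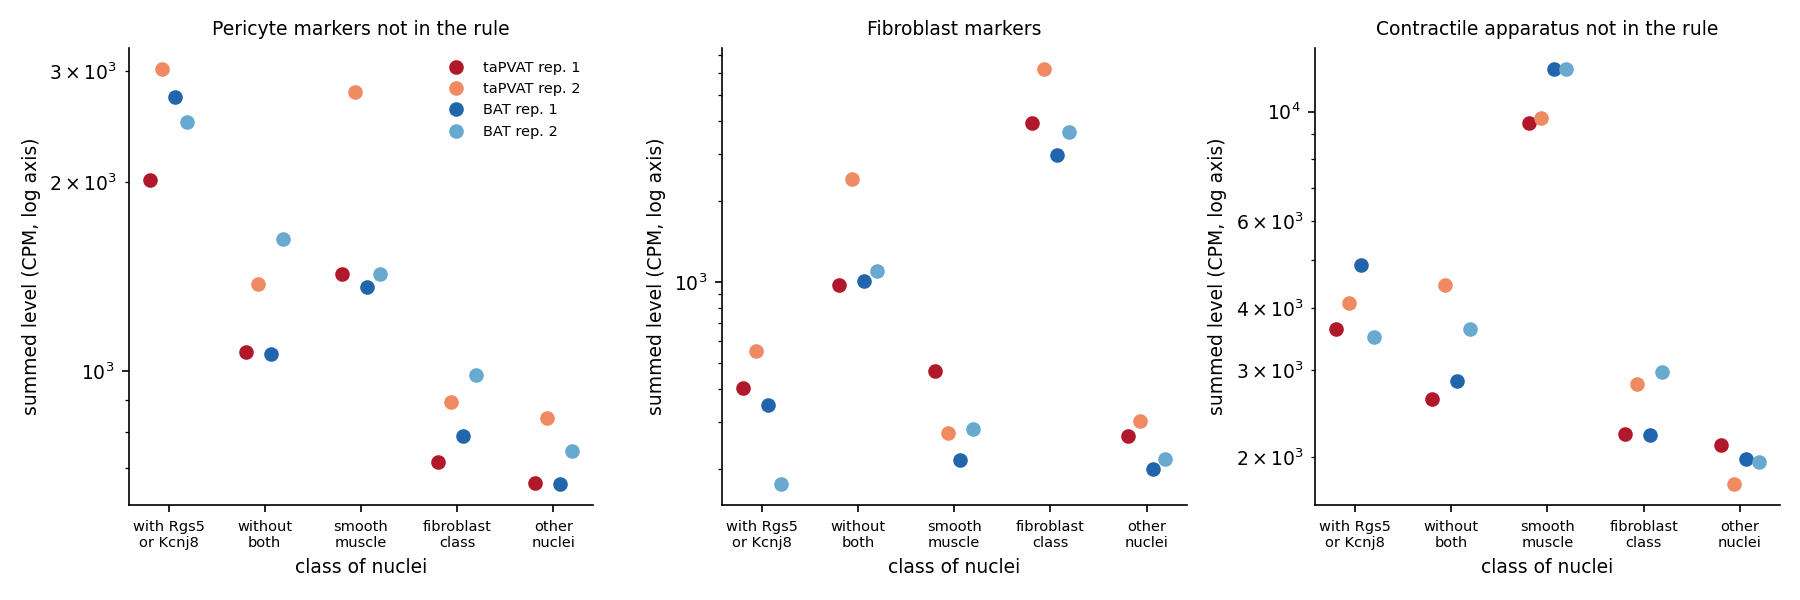
Summed level in CPM (log axis) of pericyte markers outside the rule, fibroblast markers and contractile genes outside the rules, by class of nuclei (x axis). The first 2 classes are the selected nuclei with and without Rgs5 or Kcnj8, and each point is a library. Fibroblast markers are higher without Rgs5 or Kcnj8 in all 4 libraries, and contractile genes are highest in smooth muscle nuclei.

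Clustering of the selected nuclei alone gave 9 expression groups, described here without a test by marker sums, selected genes and the 3 genes with the largest ratio of CPM + 20 to the other selected nuclei. These were Rgs5, Slco3a1 and Adgrf5 in group 1, Pde10a, Postn and Septin11 in group 4, Eln, Ntn1 and Col8a1 in group 5 and Hba-a1, Smpd3 and Hba-a2 in group 7. They were Aspg, Plxna4 and Gpam in group 2, Hs6st2, Syndig1 and Prlr in group 3, Kcnn3, Fbxo32 and Hs2st1 in group 6, Grik2, Scn7a and Slc35f1 in group 8 and Entpd1, Adamts9 and Socs2 in group 9. Groups 1 and 4, with 236 and 242 nuclei, had the highest Rgs5 (934 and 1055 CPM), Abcc9 (2471 and 3082 CPM) and Ednra, the endothelin type A receptor (693 and 837 CPM). Their fibroblast markers summed to 428 and 416 CPM, and 75.8% and 78.9% of their nuclei had Rgs5 or Kcnj8. Of the 9 groups they also had the highest sums of pericyte markers outside the rule (3455 and 6082.5 CPM) and of contractile genes outside the rules (5283 and 7957 CPM, against 9490.3 to 12226 CPM in smooth muscle nuclei). They were the shallowest, with medians of 1254 and 1534 UMIs, and had the highest median shares of mitochondrial UMIs, 17.9% and 16.7%. Group 1 was mostly a taPVAT replicate 1 group, with 199 of its nuclei, while group 4 drew 47, 42, 93 and 60 nuclei from the libraries in order.

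Groups 3, 5 and 7, with 177, 40 and 244 nuclei, were poor in Rgs5 and had the highest fibroblast marker sums of all the groups. Group 3 lay far below groups 5 and 7 in that sum. Their fibroblast markers summed to 952, 4556 and 3046 CPM and Rgs5 stood at 6.22, 24.9 and 12.6 CPM. Group 7, led by the haemoglobin gene Hba-a1 (2229.5 CPM against 73.9 CPM in the other selected nuclei), held Lama2, the laminin alpha 2 chain, at 2872 CPM, and Smpd3, a sphingomyelinase, at 1879 CPM. Over all selected nuclei Hba-a1 was far higher in taPVAT replicate 2 than in any other library, as given below. Group 7 also held Notch3 (641 CPM), Pdgfrb (598 CPM) and Abcc9 (630.1 CPM), which is how it met the rule. It made up 46.3% of the selected nuclei of taPVAT replicate 2 but 6.84%, 22.6% and 14.9% of those of taPVAT replicate 1, BAT replicate 1 and BAT replicate 2. Group 5 held elastin, Eln, at 1290.2 CPM, against 26.2 CPM in group 1.

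Groups 2, 6 and 9, with 316, 111 and 76 nuclei, had deeper nuclei with more adipocyte RNA than groups 1, 4 and 7. Median UMIs were 3926, 6121 and 4170.5, and adipocyte markers summed to 9555, 11623 and 8129 CPM. Group 3 was like them in both, with a median of 5927 UMIs and adipocyte markers at 9373 CPM. Rgs5 or Kcnj8 was present in 76.9% of group 2 and 78.9% of group 9 but in 22.5% of group 6, where Abcc9 (196 CPM) and Cspg4 (175 CPM) were the rule genes with the highest levels. Group 9 came from BAT replicate 2 (60 nuclei) and taPVAT replicate 2 (16), so the other library of each tissue had none of it. Groups 2 and 6 came mostly from the libraries numbered 1, with 243, 3, 67 and 3 nuclei and 57, 5, 48 and 1 nuclei in the usual order. The clustering made no correction for the library. Group 8 had 8 nuclei and is only counted. Scrublet, a doublet caller, marked 115, 16 and 30 of the selected nuclei in taPVAT replicates 1 and 2 and BAT replicate 2. These were 16.7%, 9.88% and 16.6% of the selected nuclei, above the 10.8%, 6.61% and 15.3% marked among all kept nuclei. Scrublet called none in BAT replicate 1 and was judged to have failed there.

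**Figure D2:**
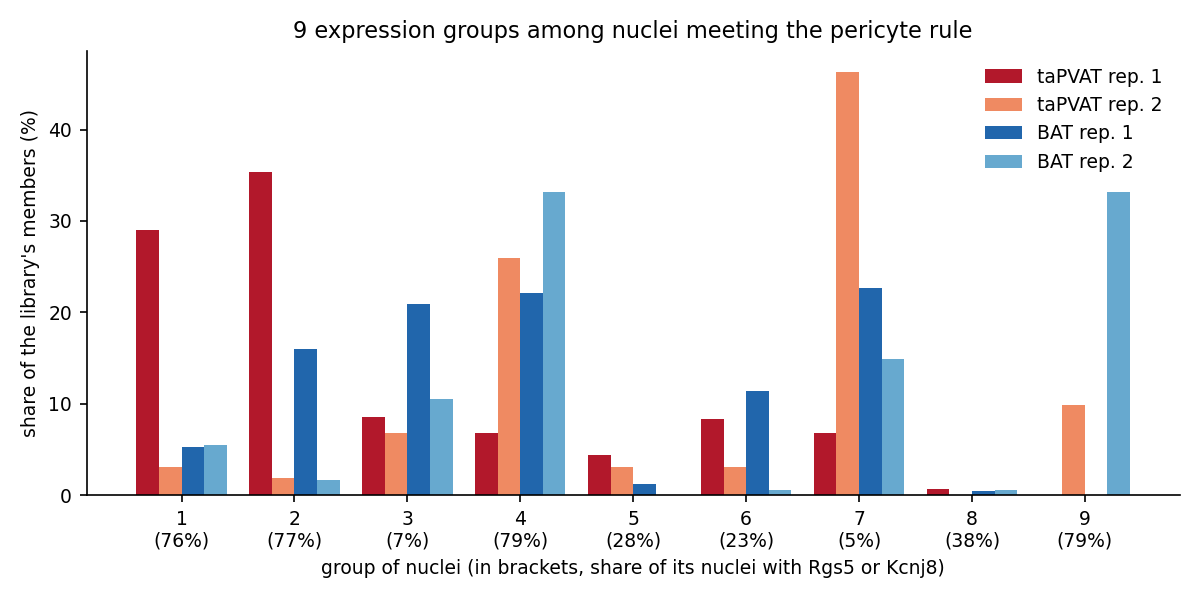
Share of each library's selected nuclei (%, y axis) in each of 9 expression groups (x axis), with the share of a group's nuclei that had Rgs5 or Kcnj8 in brackets. Group 7 takes 46.3% of taPVAT replicate 2, and group 1 lies mostly in taPVAT replicate 1.

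Values close to the thresholds are a description of the rule and were not tested. The 357 nuclei with exactly 3 rule UMIs had Ednra at 90.3, 139, 54.5 and 64.5 CPM, and selected nuclei above 3 UMIs at 297, 345, 155 and 253 CPM. Nuclei just outside, with 2 rule UMIs in 2 genes (367, 78, 260 and 104 nuclei), had 20.3, 29.4, 21.3 and 41.2 CPM. Nuclei that met the pericyte count but had at least 1 UMI of Myh11, Cnn1 or Myocd numbered 731, 266, 508 and 526, and Ednra stood at 407, 519, 273 and 254 CPM in them. The limit on these 3 genes therefore left out more nuclei than it kept in taPVAT replicates 1 and 2 and in both BAT libraries.

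Selected nuclei made up a larger share of taPVAT than of BAT nuclei, and smooth muscle nuclei a smaller one. The share was 1.60% (Wilson 95% interval 1.48 to 1.72%) and 1.31% (1.13 to 1.53%) in taPVAT, and 1.22% (1.11 to 1.34%) and 0.676% (0.584 to 0.781%) in BAT. The means were 1.46% ± 0.202 (SD, n = 2) and 0.946% ± 0.382 (SD, n = 2). The libraries did not overlap, and the difference of 0.51 percentage points had a p of 0.33 in the exact two-sided permutation test, the smallest that 2 against 2 libraries can give. Nuclei with Rgs5 or Kcnj8 made up 0.97%, 0.543%, 0.425% and 0.396% of the kept nuclei, again with no overlap. With a limit of 10% mitochondrial UMIs the shares were 1.21%, 0.495%, 0.811% and 0.433%, and the tissues overlapped. In shares of nuclei, more pericytes and fewer other nuclei cannot be told apart.

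Smooth muscle nuclei were taken as nuclei with at least 3 UMIs and 2 genes among Myh11, Cnn1, Myocd, Acta2 and Tagln, with at least 1 UMI of Myh11, Cnn1 or Myocd and the same limit on other lineages. They numbered 156, 36, 193 and 201 and made up 0.363%, 0.292%, 0.559% and 0.750% of the kept nuclei. There were 4.4 and 4.5 selected nuclei per smooth muscle nucleus in taPVAT, and 2.18 and 0.9 in BAT. The mean log2 ratio was 2.15 ± 0.022 (SD, n = 2) in taPVAT and 0.49 ± 0.90 (SD, n = 2) in BAT. The difference of 1.67 had the smallest possible exact two-sided permutation p, 0.33. This ratio rests on the smooth muscle rule. Nuclei that met the pericyte count with at least 1 UMI of Myh11, Cnn1 or Myocd numbered 731, 266, 508 and 526, above the selected nuclei in each library. Most of them met neither rule and are in neither count, and a ratio to them was not tested.

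**Figure D3:**
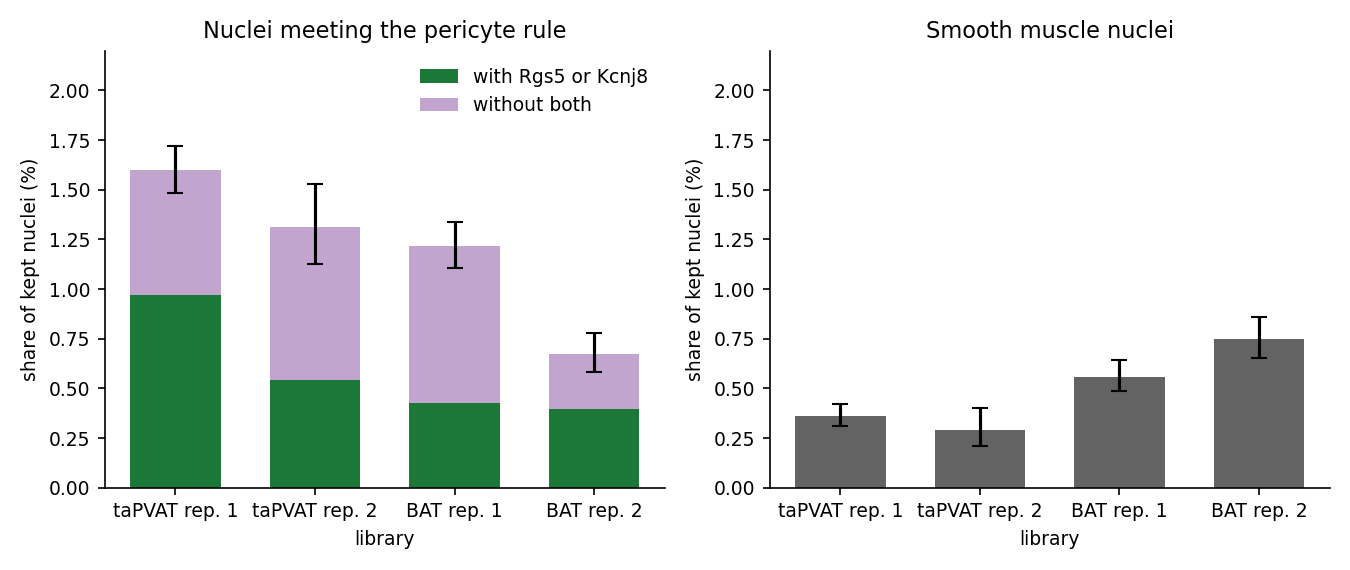
Share of kept nuclei (%, y axis) that met the pericyte rule (left, divided by the presence of Rgs5 or Kcnj8) and the smooth muscle rule (right) in each library (x axis). Error bars are Wilson 95% intervals. Pericyte-rule shares are 1.60% and 1.31% in taPVAT against 1.22% and 0.676% in BAT, while smooth muscle shares are higher in both BAT libraries than in both taPVAT libraries.

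Against smooth muscle nuclei of the same libraries, the selected nuclei had lower levels of 24 of 26 contractile genes, 15 of 32 channel genes and 14 of 32 cyclic nucleotide genes. The angiotensin receptor Agtr1a, 3 of 12 pericyte markers and 4 of 6 fibroblast markers were higher, and interstitial matrix genes were called in both directions. Several of these counts differed in nuclei with Rgs5 or Kcnj8. In edgeR's quasi-likelihood test with library as a block, 742 of 7100 genes had an adjusted p under the threshold of 0.05, of which 274 were higher (3.86%) and 468 lower (6.59%) in the selected nuclei. The genes of the 2 rules were left out. In the nuclei with Rgs5 or Kcnj8, 236 genes were higher (3.70%) and 381 lower (5.98%), and 496 of the 742 genes were called there too. The subset is part of the selected nuclei and was set against the same smooth muscle nuclei, so the 2 tests are not independent. The classes were divided by Myh11, Cnn1 and Myocd, so genes that go with these 3 had to differ, and the calls below describe how the 2 selected sets differ. Likewise the subset with Rgs5 or Kcnj8 was chosen by these genes while smooth muscle nuclei were not, so genes that go with Rgs5 or Kcnj8 could be higher in it through that choice alone. With at most 10% mitochondrial UMIs per nucleus (9 smooth muscle nuclei in taPVAT replicate 2) 311 genes were called. Of the genes named below, Agtr1a, Steap4, Timp3, Pde8b, Pdgfd, Kcnq5 and Col4a2 then lost their calls, with adjusted p of 0.128, 0.305, 0.107, 0.288, 0.0715, 0.675 and 0.404.

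The contractile apparatus was lower as a whole. Of 26 contractile genes tested outside the rules, 24 were lower, 0 higher and 2 not called, with a median log2 fold change of -2.10 against 0.02 over all genes tested. Actg2, the smooth muscle gamma actin, was at 0.423, 0, 2.23 and 4.51 CPM in the selected nuclei and 60.6, 28.1, 138 and 232 CPM in smooth muscle (log2 fold change -6.04 ± 0.30, SE, adjusted p = 3.05e-10). Every smooth muscle library lay above every library of the selected nuclei. Actn1, an actin cross-linker, was at 31.7, 38.7, 27.4 and 24.1 CPM against 298, 274, 418 and 614 CPM (log2 fold change -3.71 ± 0.20, SE, adjusted p = 8.08e-10). Tpm1, the alpha tropomyosin, was at 134, 186, 178 and 152 against 1020.4, 1201, 1259.7 and 1366 CPM, and Lmod1, a leiomodin that nucleates actin, at 87.1, 107, 147 and 137 against 549, 646, 858 and 681 CPM (log2 fold changes -2.94 ± 0.12 and -2.56 ± 0.12, SE). Tpm1 was above its level in other nuclei (45.6, 32.9, 52.6 and 42.1 CPM), while Lmod1 was below that (109, 120.4, 215 and 179 CPM). Mylk, the myosin light chain kinase, differed least of those named, with 510.03, 562, 493 and 472 against 953, 927, 959.7 and 948 CPM (log2 fold change -0.94 ± 0.11, SE, adjusted p = 5.09e-06).

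Serum response factor binds a motif called the CArG box in many smooth muscle promoters, and Myocd is its partner. The 250 bases upstream of the start (RefSeq promoters, build GRCr8) were searched for the consensus CArG box, which is its own reverse complement, so both strands were covered. Of the 24 contractile genes that were lower, 19 had a promoter in the table, and 1 of them (5.26%) held the motif, against 501 of 33469 promoters overall (1.5%). It was Ldb3, a Z-disc protein that binds actinin, with an adjusted p of 6.81e-09 and a log2 fold change of -3.39 in the edgeR test. Its window is shown because it alone of these promoters carries the motif, in capitals, on the minus strand of GRCr8 at chr16:9924682-9924771, within the upstream bases.
Ldb3: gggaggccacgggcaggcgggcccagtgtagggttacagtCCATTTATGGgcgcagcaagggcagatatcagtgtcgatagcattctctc
A match describes these letters only. The counts were made on another build, Rnor_6.0, and no position was compared between the builds.

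Fewer channel genes than contractile genes were called. Of 32 channel and transporter genes tested, 15 were lower, 1 higher and 16 not called, with a median log2 fold change of -0.37. The calls in nuclei with Rgs5 or Kcnj8 were 4 higher and 10 lower of 30. Over all genes 6.59% were lower and 3.86% higher, and in that subset 5.98% and 3.70%. Kcnma1, the large-conductance calcium-activated potassium channel, was at 0, 0, 1.12 and 3.01 CPM in the selected nuclei and 444, 372, 565 and 438 CPM in smooth muscle (log2 fold change -9.10 ± 0.30, SE, adjusted p = 8.1e-12). Ryr2, the calcium release channel of the sarcoplasmic reticulum, was at 0.846, 3.69, 1.67 and 1.5 against 64.1, 42.2, 173 and 168 CPM (log2 fold change -6.12 ± 0.33, SE, adjusted p = 7.45e-10). Casq2, which binds calcium in that store, was at 2.96, 3.69, 2.23 and 4.51 against 142, 63.2, 136 and 83.2 CPM. Other nuclei held 0.998, 0.721, 0.709 and 1.13 CPM of Ryr2 and 1.02, 0.737, 0.858 and 1.37 CPM of Kcnma1. Both genes thus stood at a few CPM or less in selected and other nuclei, and the order of these classes differed between libraries.

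Other calcium channel and transporter genes were lower as well. Cacna1c, the pore of the L-type calcium channel, was at 124, 144, 64.8 and 99.3 against 303, 372, 288 and 245 CPM (log2 fold change -1.58 ± 0.15, SE, adjusted p = 9.6e-07), with 9.94, 11.2, 4.73 and 7.55 CPM in other nuclei. Cacnb2, the beta subunit that goes with it, fell further, to 11, 7.38, 3.35 and 7.52 from 492, 323, 643 and 524 CPM (log2 fold change -6.14 ± 0.24, SE, adjusted p = 4.59e-11), and was below its level in other nuclei (18.2, 13.9, 10.9 and 10.7 CPM) in each library. The sodium-calcium exchanger Slc8a1 was at 199, 299, 154 and 153 against 979, 457, 929 and 707 CPM (log2 fold change -2.07 ± 0.22, SE, adjusted p = 2.07e-06). Kcnq5, a voltage-gated potassium channel, was the only channel gene called higher over all selected nuclei, at 138, 149, 121 and 153 against 67.6, 218, 67.5 and 66 CPM (log2 fold change 0.70 ± 0.21, SE, adjusted p = 0.0433), although in taPVAT replicate 2 it was lower. Its adjusted p rose to 0.286, 0.219 and 0.347 without taPVAT replicate 1, BAT replicate 1 and BAT replicate 2. Among nuclei with Rgs5 or Kcnj8 its difference was 1.38 ± 0.20 (SE, adjusted p = 4.83e-05). The calcium-activated chloride channel Ano1 was not called in all selected nuclei (217, 166, 241 and 251 against 172, 232, 209 and 131 CPM, log2 fold change 0.29 ± 0.17, SE, adjusted p = 0.42), and was higher in those with Rgs5 or Kcnj8 (319, 332, 500.03 and 312 CPM, 1.05 ± 0.13, SE, adjusted p = 9.21e-06).

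Nitric oxide relaxes mural cells through soluble guanylate cyclase and cGMP, which Pde5a breaks down. Of 32 cyclic nucleotide and G protein genes tested, 14 were lower, 1 higher and 17 not called, beside 6.59% lower and 3.86% higher of all genes. The calls in nuclei with Rgs5 or Kcnj8 were 5 higher and 10 lower of 32, beside 3.70% and 5.98%. The cyclase subunit Gucy1a1 was at 108, 51.6, 103 and 43.6 CPM against 281, 141, 318 and 148 CPM (log2 fold change -1.58 ± 0.14, SE, adjusted p = 2.01e-07). The other alpha subunit, Gucy1a2, was not called over all selected nuclei, at 684, 894, 386 and 365 against 724, 1026, 403 and 356 CPM (log2 fold change -0.11 ± 0.11, SE, adjusted p = 0.738), and was far above its level in other nuclei (37.3, 41.2, 23.9 and 33.1 CPM) in each library. It was called lower with at least 1000 genes per nucleus (-0.50, adjusted p = 0.00445) and with at most 10% mitochondrial UMIs (-0.60, adjusted p = 0.0067), while in nuclei with Rgs5 or Kcnj8 its difference was 0.29 ± 0.13 (SE, adjusted p = 0.239). The beta subunit Gucy1b1 and Mrvi1, a substrate of the cGMP-dependent kinase, were called lower (log2 fold changes -1.11 ± 0.22 and -0.63 ± 0.13, SE). Both lost the call in nuclei with Rgs5 or Kcnj8 (edgeR adjusted p = 0.608 and 0.495), and Mrvi1 also without taPVAT replicate 1 (0.068). Pde5a was at 85.9, 112, 43 and 105 against 152, 407, 152 and 136 CPM (log2 fold change -1.22 ± 0.21, SE, adjusted p = 0.000458), and in nuclei with Rgs5 or Kcnj8 its difference was -0.46 ± 0.15 (SE, adjusted p = 0.0609). Dgkb, a diacylglycerol kinase, was at 100.2, 92.2, 58.6 and 93.3 against 1159, 639, 1475 and 1182 CPM (log2 fold change -3.78 ± 0.21, SE, adjusted p = 9.99e-10).

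Pde8b, a phosphodiesterase for cAMP, was the only member of that list called higher over all selected nuclei. It was at 306, 328, 116 and 203 CPM in the selected nuclei and 95.3, 302, 77.9 and 57.4 CPM in smooth muscle (log2 fold change 1.05 ± 0.22, SE, adjusted p = 0.00321), higher in all 4 libraries. Without taPVAT replicate 1 its adjusted p was 0.0713, and without BAT replicate 2 it was 0.0649. In nuclei with Rgs5 or Kcnj8 it was at 460.03, 688, 320.02 and 259 CPM, a difference of 1.95 ± 0.16 (SE, adjusted p = 1.86e-08). In nuclei without them it was at 133, 46.1, 36.4 and 98.8 CPM.

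Of 12 vasoactive receptor genes tested, Agtr1a was higher and Ptger3 lower, beside 3.86% and 6.59% of all genes. Agtr1a, the type 1 receptor for angiotensin II, was at 106, 90.4, 55.3 and 49.6 CPM in the selected nuclei and 34.6, 91.3, 18.2 and 11.5 CPM in smooth muscle (log2 fold change 1.35 ± 0.26, SE, adjusted p = 0.00153). In 3 libraries the difference was plain, while in taPVAT replicate 2, with 36 smooth muscle nuclei, the classes were level. Fibroblast nuclei held it at 57.5, 52.2, 60.5 and 48.3 CPM and other nuclei at 7.62, 7.11, 4.24 and 4.93 CPM. In nuclei with Rgs5 or Kcnj8 it was at 142, 96.5, 80 and 57.9 CPM (1.77 ± 0.27, SE, adjusted p = 8.71e-05). Ptger3, the EP3 receptor for prostaglandin E2, was at 23.3, 14.8, 27.4 and 13.5 against 36.4, 70.3, 72.7 and 77.5 CPM (log2 fold change -1.52 ± 0.26, SE, adjusted p = 0.000545).

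The endothelin receptors were not called in all selected nuclei. Ednra was at 247, 288, 122 and 200.04 against 220.02, 253, 156 and 116 CPM (log2 fold change 0.14 ± 0.16, SE, adjusted p = 0.794) and Ednrb at 127, 153, 119 and 132 against 84.9, 197, 93.5 and 93.2 CPM (log2 fold change 0.30 ± 0.16, SE, adjusted p = 0.37). In the nuclei with Rgs5 or Kcnj8 both were higher than in smooth muscle, Ednra at 367, 432, 270.01 and 255 CPM (0.85 ± 0.12, SE, adjusted p = 4.25e-05) and Ednrb at 192, 302, 298 and 174 CPM (1.17 ± 0.16, SE, adjusted p = 2.35e-05). Nuclei with at least 4 rule UMIs in at least 3 rule genes gave calls as well (0.76 and 1.05, edgeR adjusted p = 0.000561 and 1.28e-05). That stricter set was also chosen by rule genes while smooth muscle nuclei were not, so its calls are no separate support. With 0 UMIs of the excluded genes Ednrb was called higher (0.56, edgeR adjusted p = 0.0228). With at least 1000 genes per nucleus the log2 fold changes of Ednra and Ednrb over all selected nuclei were -0.23 and -0.15. Other nuclei held Ednra at 12, 11.8, 6.49 and 10.1 CPM. The angiotensin receptors Agtr1b and Agtr2 were at 0 in the selected nuclei, as was the angiotensin converting enzyme, Ace.

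Among pericyte markers that the rule had not used, 3 of 12 tested were higher than in smooth muscle, 2 lower and 7 not called. Over all genes 3.86% were higher and 6.59% lower, and 3.70% and 5.98% in nuclei with Rgs5 or Kcnj8. The calls in nuclei with Rgs5 or Kcnj8 were 6 higher and 1 lower of 12, with a median log2 fold change of 0.95 against 0.27 over all selected nuclei. Steap4, a metalloreductase, was at 159, 350.4, 119 and 194 CPM against 93.6, 288, 42.9 and 88.9 CPM (log2 fold change 0.88 ± 0.17, SE, adjusted p = 0.00141), higher in all 4 libraries. Vtn, the adhesive protein vitronectin, was at 22.4, 42.4, 21.8 and 49.6 against 15.6, 35.1, 9.09 and 12.9 CPM (log2 fold change 1.08 ± 0.32, SE, adjusted p = 0.0354), and its adjusted p was 0.157 and 0.408 without BAT replicates 1 and 2. Rgs4, a relative of Rgs5, was at 54.6, 55.3, 31.8 and 46.6 against 20.8, 56.2, 16.9 and 24.4 CPM (log2 fold change 0.88 ± 0.25, SE, adjusted p = 0.0295). Its adjusted p was 0.292, 0.133 and 0.139 without taPVAT replicate 1, BAT replicate 1 and BAT replicate 2. In nuclei with Rgs5 or Kcnj8, the differences were 1.04 ± 0.18, 1.77 ± 0.31 and 1.78 ± 0.24 (log2, SE), with adjusted p of 0.000375, 0.000418 and 2.1e-05.

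The lower markers were Mcam and Itga7. Mcam, the adhesion molecule CD146, was at 140.4, 133, 138 and 167 CPM against 253, 422, 304 and 327 CPM (log2 fold change -1.14 ± 0.14, SE, adjusted p = 1.03e-05), and it was also lower in nuclei with Rgs5 or Kcnj8 (-0.57 ± 0.13, SE, adjusted p = 0.00413). Itga7, the alpha chain of a laminin receptor, was at 118, 53.5, 101 and 78.2 against 172, 133, 165 and 106 CPM (log2 fold change -0.69 ± 0.15, SE, adjusted p = 0.00415), with an adjusted p of 0.0582 without BAT replicate 1 and 0.393 in nuclei with Rgs5 or Kcnj8. Postn, which is among these markers, was not called, at 370.5, 485, 434 and 641 against 223, 717, 270.1 and 293 CPM.

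**Figure D4:**
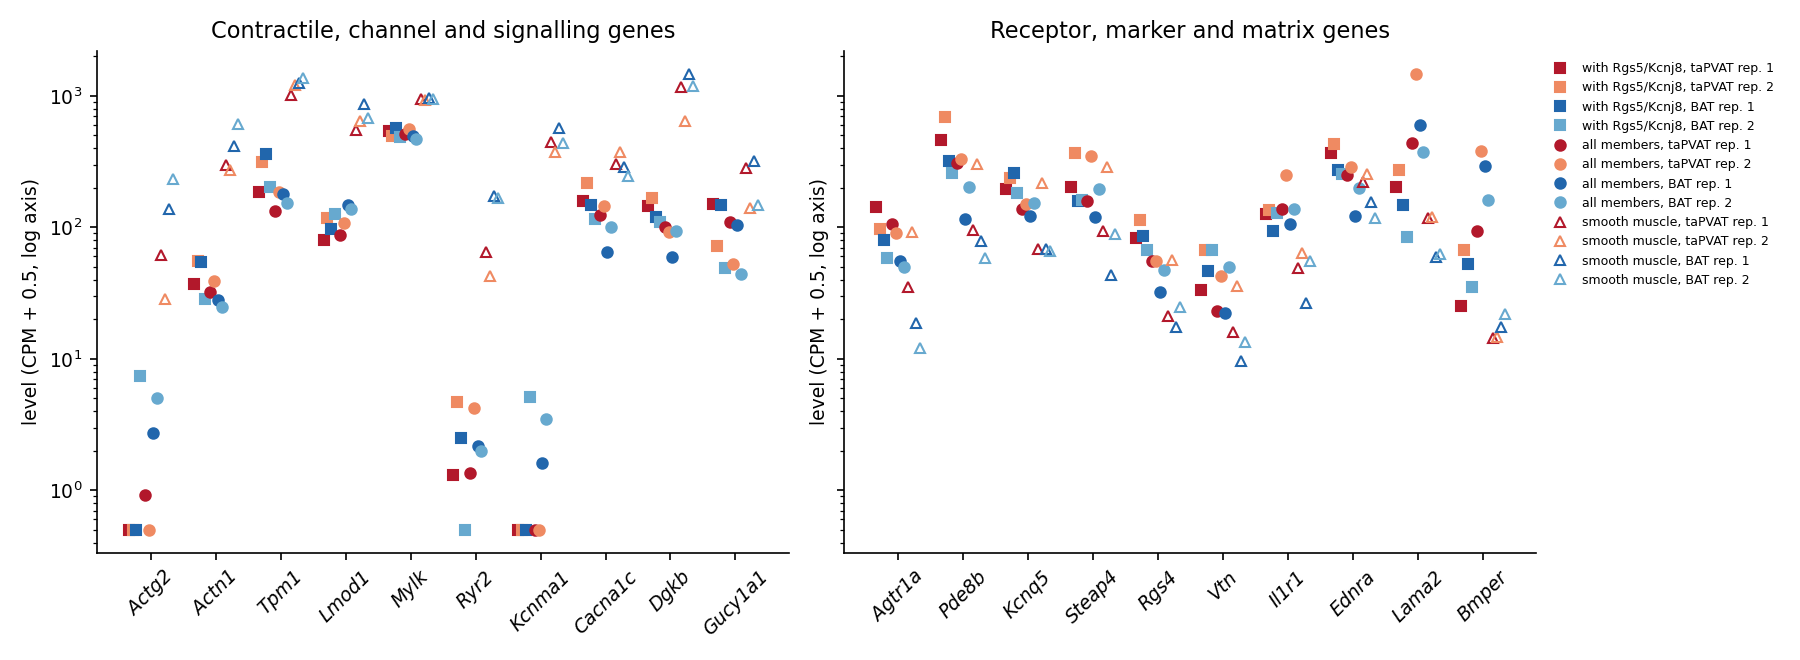
Level of 20 genes (CPM + 0.5, log axis) in selected nuclei with Rgs5 or Kcnj8 (squares), all selected nuclei (circles, named members in the key) and smooth muscle nuclei (open triangles), with a point per library. The 10 genes on the left, of contraction, channels and signalling, are lower in selected nuclei, and Agtr1a, Pde8b and Il1r1 on the right are higher, apart from taPVAT replicate 2 for Agtr1a, where the classes are level.

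Ligands and receptors of the pathways that join mural and endothelial cells differed in both directions. Of 11 platelet-derived growth factor and Notch genes tested outside the rule, 2 were higher and 5 lower, beside 3.86% and 6.59% of all genes. Pdgfa, a ligand, was at 17.3, 27.7, 16.7 and 22.6 CPM against 95.3, 126, 79.2 and 84.6 CPM (log2 fold change -2.27 ± 0.20, SE, adjusted p = 2.3e-07). Pdgfd, a ligand of Pdgfrb, was higher, at 57.1, 195, 72.6 and 81.2 against 20.8, 7.03, 50.6 and 48.8 CPM (log2 fold change 1.08 ± 0.28, SE, adjusted p = 0.0172), but with an adjusted p of 0.0939 and 0.0579 without taPVAT replicate 1 and BAT replicate 2. Fibroblast nuclei had still more of it, 142, 276, 100.4 and 133 CPM. The receptor Notch2 was at 71, 79.3, 72 and 57.2 against 116, 98.4, 127 and 179 CPM (log2 fold change -0.96 ± 0.18, SE, adjusted p = 0.000967).

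Of 27 TGF-beta, angiopoietin and guidance genes tested, 7 were higher and 7 lower, beside 3.86% and 6.59% of all genes. The calls in nuclei with Rgs5 or Kcnj8 were 3 higher and 7 lower of 27, beside 3.70% and 5.98%. The ligand Tgfb3 was at 2.96, 9.22, 2.79 and 4.51 CPM against 43.3, 56.2, 67.5 and 96.1 CPM (log2 fold change -3.99 ± 0.31, SE, adjusted p = 5.3e-08), and Angpt2, an antagonist of the endothelial receptor Tek in most settings, at 6.34, 5.53, 5.02 and 6.02 against 46.8, 28.1, 49.3 and 23 CPM (log2 fold change -2.86 ± 0.31, SE, adjusted p = 3.68e-06). Eng, the co-receptor endoglin, was higher, at 52, 77.5, 31.8 and 31.6 against 17.3, 49.2, 11.7 and 11.5 CPM (log2 fold change 1.30 ± 0.26, SE, adjusted p = 0.00188). Both ligands named from this list were thus lower and the co-receptor higher in the selected nuclei. Il1r1, the receptor for interleukin 1, was at 138, 249, 105 and 138 against 48.5, 63.2, 26 and 54.5 CPM (log2 fold change 1.62 ± 0.17, SE, adjusted p = 2.15e-06), without overlap, and stayed higher in nuclei with Rgs5 or Kcnj8 (1.41 ± 0.19, SE, adjusted p = 1.45e-05).

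Basement membrane genes split by chain. Of 19 tested, 5 were higher and 4 lower, beside 3.86% and 6.59% of all genes. The collagen IV chain Col4a1 was at 1119, 3651, 1720.01 and 2524 CPM against 864, 1742, 910.4 and 1687 CPM (log2 fold change 0.70 ± 0.12, SE, adjusted p = 0.000417), and Col4a2 at 195, 644, 206 and 460.3 against 147, 309, 142 and 317 CPM (log2 fold change 0.58 ± 0.13, SE, adjusted p = 0.00515). In nuclei with Rgs5 or Kcnj8 these differences were 0.31 ± 0.10 and 0.34 ± 0.13 (SE), with adjusted p of 0.0703 and 0.116. Lama5, a laminin chain of mature vessels, was at 0.423, 0, 3.35 and 3.01 against 65.8, 42.2, 93.5 and 103 CPM (log2 fold change -5.45 ± 0.34, SE, adjusted p = 4.93e-09), Col4a5 at 23.3, 46.1, 26.8 and 12 against 199, 183, 244 and 224 CPM, and Col18a1, the source of endostatin, at 22, 33.2, 29 and 42.1 against 163, 253, 323 and 592 CPM. The last 3 did not overlap between the classes.

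Interstitial matrix genes differed in both directions, while the fibroblast markers called were all higher. Of 28 matrix genes tested, 14 were higher and 9 lower, beside 3.86% and 6.59% of all genes. The calls in nuclei with Rgs5 or Kcnj8 were 8 higher and 5 lower of 23, beside 3.70% and 5.98%. Of 6 fibroblast markers 4 were higher and none lower over all selected nuclei. Dcn, the proteoglycan decorin, was at 125, 271, 126 and 64.7 CPM against 60.6, 35.1, 26 and 23 CPM (log2 fold change 1.71 ± 0.23, SE, adjusted p = 3.39e-05), but at 63.9, 134, 48 and 18.5 CPM in nuclei with Rgs5 or Kcnj8 (0.51 ± 0.27, SE, adjusted p = 0.352). In that subset no fibroblast marker was called, of 4 tested. Timp3, an inhibitor of matrix proteases, was higher in all 4 libraries, at 959.6, 2220.3, 2196 and 2297 against 551, 1805, 1038 and 998 CPM (log2 fold change 0.82 ± 0.13, SE, adjusted p = 0.000254), and in the subset by 1.26 ± 0.18 (SE, adjusted p = 2.92e-05).

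Among called genes above 50 CPM in the selected nuclei of all 4 libraries and higher in each, the 12 with the largest increase were Smpd3, C7, Itgbl1, Bmper, Srpx, Adam12, Col5a3, Glis3, Abi3bp, Eya2, Lama2 and Pappa1, with log2 fold changes of 4.90 down to 2.73. All 12 were higher without than with Rgs5 or Kcnj8 in all 4 libraries, and 6 were higher still in fibroblast nuclei in all 4. Bmper, a secreted protein that binds bone morphogenetic proteins, was at 93.5, 378, 289.7 and 161 CPM against 13.9, 14.1, 16.9 and 21.5 CPM (log2 fold change 3.47 ± 0.23, SE, adjusted p = 1.01e-08). It was at 24.8, 67.2, 52 and 34.7 CPM with Rgs5 or Kcnj8 (1.21 ± 0.30, SE, adjusted p = 0.0102). In this subset 9 of the 12 were tested and 8 called, with a median log2 fold change of 1.36.

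Decreases were ranked among called genes above 50 CPM in smooth muscle in all 4 libraries and lower in the selected nuclei in each. The 12 with the largest decrease were Cdh6, Grip2, Kcnma1, Cpa6, Map3k7cl, Cap2, Cyp4f18, Cacnb2, Dmd, Casq2, Dgkg and Lrrtm3. All 12 were called in nuclei with Rgs5 or Kcnj8 too. That subset is part of the nuclei that gave the ranking, so these calls are no separate test. Cdh6, a cadherin, had 0 UMIs in all 1450 selected nuclei and 147, 56.2, 178 and 191 CPM in smooth muscle. With a limit of 3 counts over the class it was at least 297-fold lower. Grip2, a scaffold protein, also had 0 UMIs against 149, 84.3, 158 and 83.2 CPM and was at least 227-fold lower by the same limit. Dmd, dystrophin, which links actin to the matrix, was at 66, 44.3, 71.5 and 31.6 against 2427, 1559.6, 3014 and 3233 CPM (log2 fold change -5.56 ± 0.19, SE, adjusted p = 8.1e-12). Integrins and adhesion genes gave 8 lower and 1 higher of 12 tested, beside 6.59% and 3.86% of all genes.

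Of 10 transcription factors of smooth muscle tested, 3 were lower and none higher, beside 6.59% and 3.86% of all genes. Mef2c was at 83.3, 77.5, 51.9 and 51.1 CPM against 456, 246, 340.2 and 204 CPM (log2 fold change -2.36 ± 0.16, SE, adjusted p = 1.17e-08). Srf itself was at 12.3, 25.8, 20.7 and 16.5 against 13.9, 0, 20.8 and 23 CPM and was not called. Tbx18, a T-box factor of mural cells, was at 28.3, 27.7, 24 and 28.6 against 32.9, 49.2, 24.7 and 15.8 CPM and Tbx5 at 91.3, 114, 46.3 and 58.7 against 46.8, 162, 35.1 and 31.6 CPM, and neither was called. Tbx5 was at 4.07, 4.75, 2.7 and 4.65 CPM in other nuclei, below both mural classes in every library.

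Between taPVAT and BAT, no gene of the selected nuclei passed the test. Of 8797 genes, edgeR's quasi-likelihood test called 0 (0.00%), with 167 at an unadjusted p under 0.05 and a smallest adjusted p of 0.393, and DESeq2 called 3, Tbx15, Foxp2 and Slit2. For 24.0% of the genes both taPVAT libraries lay on the same side of both BAT libraries, above them for 13.4% and under them for 10.6%. The mixture of nuclei also differed between libraries (60.7% and 41.4% with Rgs5 or Kcnj8 in taPVAT, 35.0% and 58.6% in BAT), and its part in the differences was not tested. Among nuclei with Rgs5 or Kcnj8 edgeR again called 0 genes, with 123 of 6118 at an unadjusted p under 0.05. Leaving out a library gave 30 calls (taPVAT replicate 1), 11 (taPVAT replicate 2), 46 (BAT replicate 1) and 33 (BAT replicate 2), with the lone library assumed to vary like the others.

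Tbx15, a T-box factor known from brown and other fat depots, had the smallest p of the genes named for lower taPVAT levels. It was at 13.5 and 25.8 CPM in taPVAT and 128 and 102 CPM in BAT (log2 fold change -2.70 ± 0.42, SE, adjusted p = 0.393, edgeR). Smooth muscle nuclei had 8.66, 0, 116 and 88.9 CPM, fibroblast nuclei 16.1, 21.7, 183 and 179 CPM and other nuclei 9.76, 3.78, 53.6 and 23.4 CPM. In all 4 classes the BAT libraries lay above the taPVAT libraries. In the nuclei with Rgs5 or Kcnj8, it was at 10.4, 4.2, 98 and 69.4 CPM. Without a library at a time, the Tbx15 log2 fold change ran from -3.11 (without taPVAT replicate 2) to -2.22 (without taPVAT replicate 1).

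Other genes named for a small p and higher BAT levels were not called either. Robo1, a receptor for Slit proteins, was at 4.23, 5.53, 29.6 and 33.1 CPM (log2 fold change -2.77 ± 0.49, SE, adjusted p = 0.456), and in nuclei with Rgs5 or Kcnj8 at 6.39, 4.2, 8 and 13.9 CPM. Impdh1, an enzyme of guanine nucleotide synthesis, was at 38.1, 24, 121 and 81.2 CPM (log2 fold change -1.68 ± 0.38, SE, adjusted p = 0.865), close to the levels in other nuclei (43.3, 29.7, 156 and 90.1 CPM). Igfbp5, which binds insulin-like growth factors, was at 65.6, 66.4, 399 and 84.2 CPM, with BAT replicate 1 apart from the other 3 libraries. Ccser1, Brinp3, Sned1 and Ivns1abp completed the 8 genes in this direction, with log2 fold changes of -2.34, -1.51, -1.28 and -1.25. Without a library at a time, Brinp3 ran from -2.03 to -0.86, Sned1 from -1.59 to -0.76 and Ivns1abp from -1.71 to -0.78, while Ccser1 ran from -2.45 to -2.22.

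In the other direction stood Cdh11, Slit2, Asic2, Pi16, Foxp2, Vat1l, Trpm3 and Eln. Slit2, a secreted guidance ligand of Robo receptors, was at 93, 231, 8.93 and 18 CPM (log2 fold change 3.62 ± 0.59, SE, adjusted p = 0.393) and in nuclei with Rgs5 or Kcnj8 at 72.7, 79.7, 2 and 20.8 CPM. Foxp2, a forkhead repressor, was at 454, 387, 106 and 34.6 CPM (log2 fold change 2.53 ± 0.48, SE, adjusted p = 0.554), and other nuclei followed the same order with 500.4, 272, 63.5 and 24.9 CPM. Cdh11, a cadherin of mesenchymal cells, was at 45.7, 68.2, 8.93 and 7.52 CPM (log2 fold change 2.69 ± 0.43, SE, adjusted p = 0.393). Asic2, an acid-sensing ion channel, was at 79.9, 62.7, 16.2 and 10.5 CPM (log2 fold change 2.35 ± 0.39, SE, adjusted p = 0.393). Trpm3, a cation channel, was at 50.7, 456, 8.93 and 6.02 CPM (log2 fold change 4.93 ± 0.98, SE, adjusted p = 0.554), with taPVAT replicate 2 far above taPVAT replicate 1. It was at 20.8, 122, 6 and 0 CPM in nuclei with Rgs5 or Kcnj8 and in fibroblast nuclei at 176, 313, 15.5 and 36.5 CPM. Expression group 7, a group rich in fibroblast genes, had Trpm3 at 488 CPM against 23.9 CPM in the other selected nuclei. It held 46.3% of the selected nuclei of taPVAT replicate 2 but 6.84% of those of taPVAT replicate 1. It held 22.6% of those of BAT replicate 1, where Trpm3 was at 8.93 CPM. The order of the libraries in Trpm3 was thus not that in the share of group 7, whose part was not tested. Without a library at a time, the log2 fold change ran from 2.42 to 2.94 for Cdh11 and from 2.87 to 4.15 for Slit2. It ran from 2.10 to 2.67 for Asic2 and from 2.67 (without taPVAT replicate 2) to 5.78 for Trpm3. These genes were picked by their p in the same 4 libraries, so such fits are no separate support.

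Gene lists did not give a call in this comparison either. The 15 pericyte markers tested had a median log2 fold change of 0.09, against -0.004 over all genes, with 4 higher and 1 lower in taPVAT without overlap (over all genes 13.4% were higher and 10.6% lower without overlap). Of 30 cyclic nucleotide genes, 8 were higher and 2 lower without overlap (median 0.20), beside the same 13.4% and 10.6% of all genes. Gucy1a2 was at 684, 894, 386 and 365 CPM (log2 fold change 1.03 ± 0.36, SE, adjusted p = 1), and Agtr1a at 106, 90.4, 55.3 and 49.6 CPM (log2 fold change 0.88 ± 0.33, SE, adjusted p = 1), both without overlap and neither called. Of 34 interstitial matrix genes, 9 were higher and none lower without overlap (median 0.46), and the 9 fibroblast markers had a median of 0.99, beside summed levels of 669, 1597, 821 and 498 CPM. Of 12 adipocyte markers, 5 were lower and none higher in taPVAT without overlap (median -0.48).

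Transcription factors of position and development were looked at because the depots arise at different places of the body. Of 19 tested, none was called, and without overlap 7 were higher and 1 lower in taPVAT, beside 13.4% and 10.6% of all genes. Tbx5, a T-box factor of heart and forelimb, was at 91.3, 114, 46.3 and 58.7 CPM (log2 fold change 0.93 ± 0.35, SE, adjusted p = 1), and in nuclei with Rgs5 or Kcnj8 at 141, 227, 152 and 74.1 CPM. Eya4, a coactivator in development, was at 18.2, 55.3, 3.91 and 4.51 CPM (log2 fold change 2.98 ± 0.69, SE, adjusted p = 0.908). The tissues did not overlap for either gene over all selected nuclei, but they did for Tbx5 in nuclei with Rgs5 or Kcnj8.

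**Figure D5:**
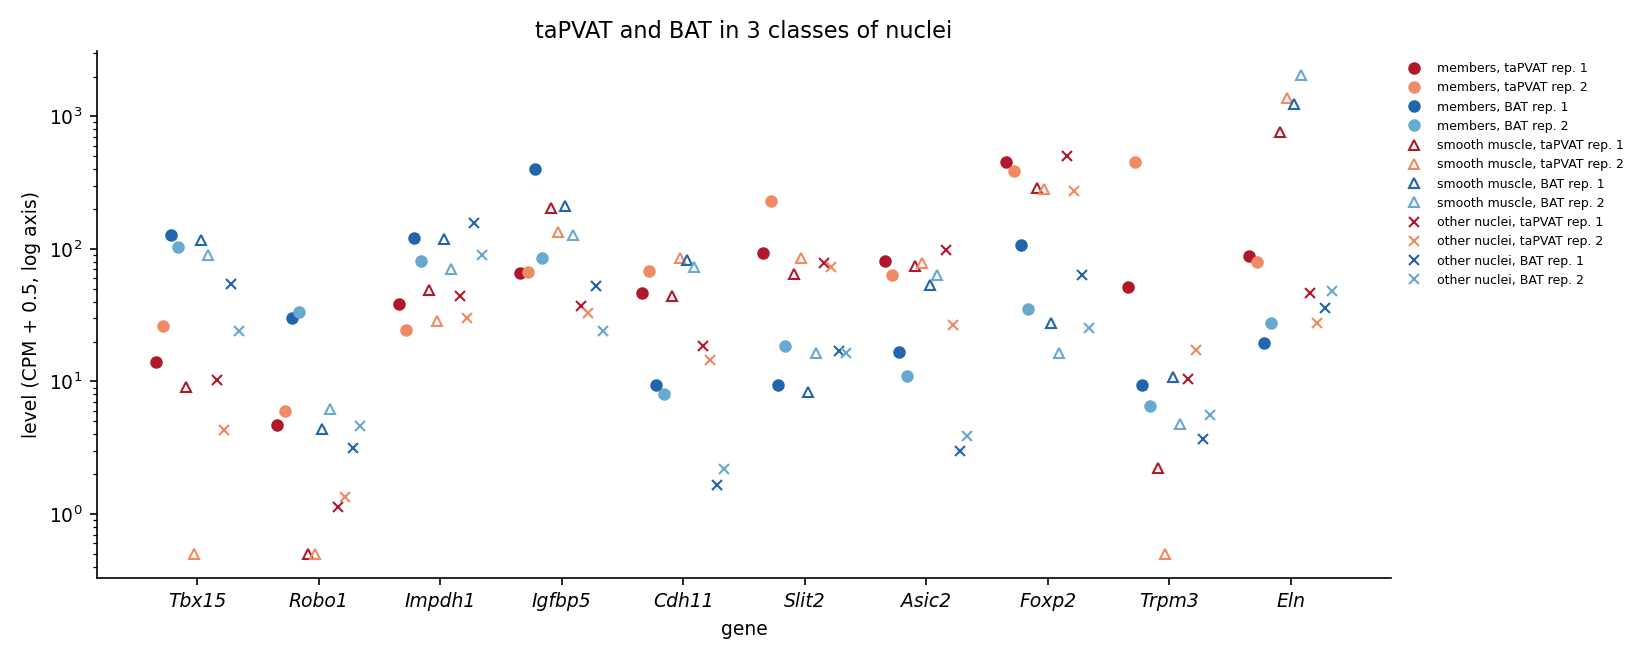
Level (CPM + 0.5, log axis) of 10 genes (x axis) in selected nuclei (circles, named members in the key), smooth muscle nuclei (open triangles) and other nuclei (crosses), with taPVAT in red and BAT in blue and a point per library. Tbx15 is higher in BAT in all 3 classes, while Cdh11 and Eln differ between the tissues in selected nuclei in another way than in smooth muscle.

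The difference between the tissues was set against that in smooth muscle by an interaction term in edgeR. It was called for 12 of 8038 genes (0.149%), 11 with a larger log2 fold change of taPVAT over BAT in the selected nuclei and 1, Igfbp5, with a smaller one. Eln, elastin, was at 88.4, 79.3, 19 and 27.1 CPM in the selected nuclei but 757, 1377, 1242 and 2064 CPM in smooth muscle. The interaction was 2.63 ± 0.31 (log2, SE, adjusted p = 1.66e-05) and 3.43 ± 0.44 (adjusted p = 5.07e-06) in nuclei with Rgs5 or Kcnj8, but 0.07 (adjusted p = 1) in nuclei with at least 4 UMIs in at least 3 rule genes. Eln was at 1290.2 CPM in expression group 5 and 18.6 CPM in the other selected nuclei. Group 5 had fibroblast markers at 4556 CPM, and its 40 nuclei were 30, 5, 5 and 0 by library, so most came from taPVAT replicate 1. Cdh11 was at 45.7, 68.2, 8.93 and 7.52 CPM against 43.3, 84.3, 81.8 and 73.2 CPM, with an interaction of 3.16 ± 0.46 (SE, adjusted p = 0.000668). Of the 12 genes, Eln and Cdh11 alone were called without each library in turn, although Eln lost its call under the stricter rule, as given, and Cdh11 with DESeq2 (adjusted p = 0.12). With Scrublet doublets removed no gene was called (315 at an unadjusted p under 0.05, smallest adjusted p 0.173), and DESeq2 called 1.

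Set against all other nuclei, which hold most of the RNA of the tissue, the interaction was called for 18 of 15364 genes (0.117%). In both interactions 4 genes were called, Eln, Trpm3, Igfbp5 and Asic2. The Eln difference (1.99 ± 0.33, SE, adjusted p = 2.72e-06) turned to -0.88 in nuclei with at least 4 UMIs in at least 3 rule genes, and its call was lost without BAT replicate 1 (0.0865) and BAT replicate 2 (0.053). Asic2 was at 79.9, 62.7, 16.2 and 10.5 CPM in the selected nuclei and 97.9, 26.2, 2.49 and 3.4 CPM in other nuclei, so the difference between the tissues was larger in other nuclei (-2.11 ± 0.38, SE, adjusted p = 6.15e-05). Ednrb was at 127, 153, 119 and 132 CPM in the selected nuclei, level between the tissues, while other nuclei had 29.9, 52.1, 10.5 and 14.9 CPM (-1.57 ± 0.27, SE, adjusted p = 1.36e-05). The 4 haemoglobin genes called, Hba-a1, Hba-a2, Hbb and LOC100134871, were highest in taPVAT replicate 2, where group 7 held 46.3% of the selected nuclei. BAT replicate 1 gave more nuclei to group 7 (95 against 75), but its selected nuclei had Hba-a1 at 47.5 CPM. The haemoglobin level of group 7 thus came mostly from taPVAT replicate 2. Hba-a1 and Hba-a2 were among the 3 leading genes of that group (856 against 31.6 CPM for Hba-a2). Hba-a1 was at 81.2, 2325, 47.5 and 88.7 CPM in the selected nuclei and at 83.1, 151, 60 and 78.7 CPM in those with Rgs5 or Kcnj8, and its adjusted p was 0.000152 without taPVAT replicate 2, 1 without BAT replicate 2 and 1 in that subset. Ednrb lost its call without BAT replicate 1 (0.538) and BAT replicate 2 (0.0603), and Asic2 without taPVAT replicate 1 (0.219) and BAT replicate 1 (1). Without BAT replicate 2 the 18 calls fell to 3, and without taPVAT replicate 1 there were 492.

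Among the selected nuclei of a library, genes varied beyond counting noise to different degrees. The measure was the variance of Pearson residuals given each nucleus's UMI total, which is about 1 for counting noise alone, over genes with a mean of at least 0.05 UMIs per nucleus. Of the 10 genes outside the rule whose lowest value over the libraries was highest, 7 were mitochondrial, led by Mt-co2 (24.9, 27.4, 29.2 and 38.9). Others among the 10 were AC134224.3 (32.6, 31.2, 35.4 and 29.4) and Timp3, an inhibitor of matrix proteases (8.31, 12.5, 28.4 and 13.5). The medians over 5861 genes were 1.08, 1.13, 1.10 and 1.05. For the same relative spread this measure is larger in genes with more UMIs, so the ranking can follow level. AC134224.3 had means of 442, 351, 529 and 546 UMIs per nucleus, and Mt-co2 of 52.6, 61.6, 58.55 and 70.1. Timp3 was at 1296, 2464, 4648 and 2113 CPM with and 581, 2029.6, 1247 and 2637 CPM without Rgs5 or Kcnj8, so it was not ordered by that split in every library.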

How the data were processed

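Nuclei of 2 taPVAT and 2 BAT libraries were profiled with 10x chemistry. The deposited values are whole-number UMI counts per gene and barcode, made by the authors with Cell Ranger 7.1.0 on Rnor_6.0, per the submitters' processing notes. The total count per library was 63654436 to 158140959.

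Barcodes with at least 500 genes were kept and the rule applied. The members, the gene lists (583 of 606 genes matched) and the rules for named genes were chosen with earlier results of these data known. Counts were summed per class and library, and genes tested with edgeR 4.0.16 (quasi-likelihood, TMM, genes with low counts filtered, Benjamini-Hochberg) in R 4.3.3: tissue alone, class with library as a block, and the interaction of class and tissue. Rule genes were left out of tests that used them. Alternatives were DESeq2 1.42.0, no filter, stricter rules, no doublets (Scrublet in scanpy 1.11.5), at most 10% mitochondrial UMIs, each library left out, the replicate number as a block and, added after seeing the data, nuclei with Rgs5 or Kcnj8. The fits were tested on simulated counts with known changes. Shares have Wilson 95% intervals and were compared by an exact permutation test. Expression groups came from Leiden clustering (igraph 0.11.9) on 20 components of 2000 genes.

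Genes named are, against smooth muscle, the 12 called genes per direction with the largest fold above 50 CPM in all 4 libraries, between tissues the 8 per direction with the smallest p above 20 CPM without overlap, for variation the 10 highest, and members of the lists. A few genes that these rules name are not reported here.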

Additional observations from a re-analysis of the deposited data

Results flagged for a closer look

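The change from BAT to taPVAT was not the same in the selected nuclei as in smooth muscle nuclei for 12 genes, by edgeR's interaction term. On the log2 scale, the difference of the selected nuclei minus that of smooth muscle was 2.63 for Eln, 3.16 for Cdh11, 6.47 for Trpm3, 2.00 for Kcnip1, 1.57 for Zfpm2 and 1.29 for Ldlrad4. It was 1.31 for Adcy5, -1.79 for Igfbp5, 2.50 for Plod2, 2.29 for Adgrd1, 4.24 for Prdm6 and 2.00 for Asic2. Eln and Cdh11 were described above. Prdm6, a transcription factor of smooth muscle, was at 11.8, 27.7, 5.58 and 0 CPM in the selected nuclei and 10.4, 0, 42.9 and 31.6 CPM in smooth muscle. Plod2, a lysyl hydroxylase of collagen, was at 74, 70.1, 29.6 and 22.6 against 15.6, 63.2, 71.4 and 33 CPM, and Zfpm2, a cofactor of GATA factors, at 376, 843, 314 and 215 against 244, 218, 391 and 318 CPM. Without taPVAT replicate 1 the calls of Adcy5, Adgrd1, Asic2, Igfbp5, Kcnip1, Ldlrad4, Plod2 and Prdm6 were lost (adjusted p 0.0552 to 0.539). Without taPVAT replicate 2 all calls were kept. Without BAT replicate 1 the calls of Adcy5, Asic2, Igfbp5, Ldlrad4, Plod2 and Trpm3 were lost (adjusted p 0.0742 to 1). Without BAT replicate 2 the calls of Adcy5, Adgrd1, Asic2, Kcnip1, Ldlrad4, Prdm6 and Zfpm2 were lost (adjusted p 0.0781 to 1). Differences that moved by over 1.5 times became 1.23 for Plod2, 10.74 for Prdm6, 11.48 for Trpm3 and 2.39 for Zfpm2 without taPVAT replicate 1. They became -0.85 for Igfbp5 and 8.68 for Prdm6 without BAT replicate 1. Prdm6 and Trpm3 had libraries at 0, so their fitted differences are no bounds.

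The same term against the other nuclei was called for 18 genes. For those reported here, the difference was 2.42 for Hba-a1, 2.12 for LOC100134871, 1.96 for Hba-a2, 2.55 for Hbb, 2.41 for Trpm3 and 1.99 for Eln. It was -1.63 for Igfbp5, -1.57 for Ednrb, 1.99 for Dach1, -2.11 for Asic2, 1.35 for Rcan2 and -1.35 for Prlr. For others it was -2.11 for Ccser1, 1.71 for Timp4, -3.89 for Vwf, -1.28 for Cacna2d3 and 1.13 for Pdgfd. Timp4, an inhibitor of matrix proteases, was at 45.7, 59, 10.6 and 21.1 CPM in the selected nuclei and 14.1, 10.3, 9.89 and 15.2 CPM in other nuclei. Dach1, a transcriptional repressor, was at 52, 55.3, 11.2 and 18 against 102, 29, 66.4 and 68.8 CPM. Vwf, the clotting factor of endothelium, was at 0.846, 1.84, 4.47 and 13.5 against 9.85, 5.78, 4.02 and 4.85 CPM, so few UMIs of the selected nuclei stand behind its value. Without taPVAT replicate 1 the calls of Asic2, Ccser1, Prlr and Vwf were lost (adjusted p 0.219 to 0.902). Without taPVAT replicate 2 the calls of Cacna2d3, Hba-a2, Hbb, Pdgfd, Timp4 and Trpm3 were lost (adjusted p 0.122 to 1). Without BAT replicate 1 the calls of Asic2, Cacna2d3, Ccser1, Dach1, Ednrb, Eln, Igfbp5, Pdgfd, Prlr, Timp4 and Vwf were lost (adjusted p 0.0569 to 1). Without BAT replicate 2 the calls of Cacna2d3, Ccser1, Ednrb, Eln, Hba-a1, Hba-a2, Hbb, LOC100134871, Pdgfd, Prlr, Rcan2, Timp4, Trpm3 and Vwf were lost (adjusted p 0.053 to 1). Differences that moved by over 1.5 times became -1.24 for Asic2, -1.99 for Cacna2d3, 3.12 for Dach1, 3.15 for Hba-a2, 3.19 for LOC100134871, 2.00 for Pdgfd, -0.32 for Prlr and -2.57 for Vwf without taPVAT replicate 1. They became 1.13 for Hba-a1, 0.47 for Hba-a2, 1.20 for Hbb, 0.98 for LOC100134871, 0.30 for Pdgfd, -2.07 for Prlr and 1.23 for Trpm3 without taPVAT replicate 2. They became -1.39 for Asic2, -0.62 for Cacna2d3 and -1.01 for Igfbp5 without BAT replicate 1. They became 1.03 for Hba-a2 without BAT replicate 2. With DESeq2 only 1 of the 18 was called.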

How the results depend on the processing

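The share of selected nuclei and the ratio to smooth muscle kept their direction under the alternatives run, which for the ratio did not include the mitochondrial limit. At most 10% mitochondrial UMIs made the shares of the tissues overlap (exact two-sided permutation p = 0.667). The share differed by 0.230 to 0.78 percentage points and the log2 ratio by 1.03 to 2.31, and neither design can reach a p of 0.05. The same replicate numbers in both tissues are not stated to pair libraries. Deviations of replicate 1 correlated at 0.362 over 8806 genes. With the replicate block edgeR called 0 genes between the tissues (307 at an unadjusted p under 0.05), and the differences stayed 0.510 and 1.67, with an exact p of 0.5. Within number 1 and number 2 the share differed by 0.383 and 0.638.

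Between taPVAT and BAT, DESeq2 called 3 genes, no filter on low counts 41, and leaving out a library 11 to 46, where edgeR called 0. Against smooth muscle the 742 calls became 1122 without a filter, 311 with at most 10% mitochondrial UMIs, 525 with DESeq2 and 510 to 910 without a library. The 12 calls of the interaction with smooth muscle became 3 with at least 1000 genes, 5 with 0 UMIs of other lineages, 0 without Scrublet doublets, 1 with DESeq2, 32 without a filter and 7 to 31 without a library. The 18 calls of the interaction with other nuclei became 11 with at least 4 UMIs in 3 rule genes, 1 with DESeq2, 9 in nuclei with Rgs5 or Kcnj8 and 3 to 492 without a library. The cause was not tested.

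Signs turned for values that were not called. Against smooth muscle, with at least 1000 genes the log2 fold change was -0.11 for Ano1, -0.23 for Ednra and -0.15 for Ednrb, and with at most 10% mitochondrial UMIs -0.00649, -0.38 and -0.17. Ednra ranged from -0.0698 to 0.35 without a library. Gucy1a2 was 0.34 with at least 4 UMIs in 3 rule genes, 0.00482 without Scrublet doublets and 0.29 in nuclei with Rgs5 or Kcnj8, but was called lower with at least 1000 genes (-0.50) and with at most 10% mitochondrial UMIs (-0.60). Between the tissues Ednrb ranged from -0.0316 to 0.24 and Steap4 from -0.00824 to 1.09 without a library. Of called values, the Eln difference against other nuclei turned to -0.88 with at least 4 UMIs in 3 rule genes, where that against smooth muscle was 0.07. DESeq2 did not call Kcnq5, Rgs4 and Vtn against smooth muscle, and with at least 1000 genes Kcnq5, Rgs4 and Pde8b were not called. In all, 49 of 73 named genes against smooth muscle and 10 of 28 between the tissues stayed on the same side of the threshold, with the same sign, in all alternatives, against 0 of 12 in the interaction with smooth muscle and 0 of 18 in that with other nuclei.

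Depth limits these values: taPVAT replicate 2 had 36 smooth muscle nuclei and 162 selected nuclei. Scrublet called 0 nuclei in BAT replicate 1, so the 6402 with the highest scores were left out there instead.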
